A study of Mus musculus with 96 samples.

Results

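The genes Malat1, Neat1, Gas5, Snhg1, Snhg6, Snhg8, Snhg12, Meg3, H19 and Kcnq1ot1, which make long noncoding RNAs, were followed through single cells of the mouse lung line C10. They were chosen by name, and all 10 were among the 40202 genes counted. The series holds 96 libraries, each of 1 sorted cell. Of these, 48 were control cells with no treatment and 48 had received RO-3306, an inhibitor of the mitotic kinase CDK1, at a labelled 10 nM for 36 h. That is a low dose for this compound, and no value in the data shows directly whether CDK1 was inhibited. All cells were of the same line in the same medium, and the labels name no culture, passage or clone, so each treatment was 1 sample and no test between treatments was possible. By its title the work used nanoSPLITS, which parts the contents of each lysed cell between RNA and protein measurement, so a library holds some of a cell's RNA.

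Libraries under 50000 counts or under 1000 detected genes were set aside, which left 29 control cells and 37 RO-3306 cells. Kept totals ran from 59979 to 6457215 counts in control (median 1753427) and from 295005 to 5321880 in RO-3306 (median 2234309). The median cell had 5177 genes with a count in control and 6951 in RO-3306, and its mitochondrial share was 3.40% and 4.42% of counts. C10 is labelled as alveolar type II epithelium, but Sftpa1, Sftpc, Sftpd, Slc34a2 and Napsa, 5 of 8 type II markers, were at 0 in every kept cell. The other type II markers were Abca3, at 9.38 CPM (counts per 1e6 counts) for control and 5.21 CPM for RO-3306, Lamp3, at 0.227 and 0.108 CPM, and Sftpb, at 0 and 0.0862 CPM. The 6 epithelial markers summed to 1.78 CPM in control and 0.978 in RO-3306, and the 6 mesenchymal markers to 5579 and 2523 CPM. Macrophage markers, 6 genes led by Cd14 and Lyz2, summed to 57.6 and 61.2 CPM, with Marco at 0. Fewer cells with an RNA and less of that RNA per cell cannot be told apart in the sums of a group, so the cells are described singly beside them.

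Malat1 is a long nuclear RNA held in nuclear speckles, bodies rich in splicing factors. Neat1 is transcribed from the neighbouring locus and forms the scaffold of paraspeckles, which hold RNA-binding proteins. Gas5 and the Snhg genes are hosts of small nucleolar RNAs (snoRNAs): the snoRNAs are cut from their introns and guide the chemical modification of ribosomal RNA, while the spliced exons code for no long protein and are in several hosts degraded by nonsense-mediated decay during translation. Many hosts belong to the class of genes whose transcripts start with a run of pyrimidines, which ties their translation and stability to growth signals, and Gas5 was first described as an RNA that accumulates when growth stops. Meg3, H19 and Kcnq1ot1 are imprinted, each expressed from 1 parental copy, and are known from embryonic growth control.

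The genes here were grouped by name, not by sequence. The start regions of the hosts are shown because a pyrimidine run is described for many snoRNA hosts. They were taken from RefSeq promoters on GRCm38.p6, an older build than the GRCm39 spans used for the counts, and 7 of the 10 genes had an entry. Each line gives 60 bases before the annotated start and 40 bases from it, 5′ to 3′ on the gene's own strand. Capitals mark the longest run of C or T touching the stretch from 5 bases before to 10 bases after the start base, and the letters TATA, which read alike on both strands, where they lie 40 to 20 bases before it.
Gas5 (chr1:161035106-161035205, plus strand, the second of 2 entries): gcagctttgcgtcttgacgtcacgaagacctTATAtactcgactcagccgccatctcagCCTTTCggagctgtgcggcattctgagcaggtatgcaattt
Snhg1 (chr19:8723427-8723526, plus strand): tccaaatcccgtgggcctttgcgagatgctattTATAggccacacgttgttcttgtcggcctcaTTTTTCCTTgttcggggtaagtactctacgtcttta
Snhg8 (chr3:123508297-123508396, minus strand): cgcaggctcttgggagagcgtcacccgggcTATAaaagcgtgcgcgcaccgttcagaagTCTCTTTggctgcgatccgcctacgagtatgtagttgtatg
Snhg12 (chr4:132308618-132308717, plus strand): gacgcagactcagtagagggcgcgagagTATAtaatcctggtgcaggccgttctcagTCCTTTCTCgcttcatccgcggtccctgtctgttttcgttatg
Malat1 (chr19:5802633-5802732, minus strand), shown as a member that is no snoRNA host: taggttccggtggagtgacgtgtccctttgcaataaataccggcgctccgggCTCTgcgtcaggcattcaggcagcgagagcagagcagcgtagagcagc

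The pyrimidine run was 6 bases long in Gas5, 7 in Snhg8 and 9 in both Snhg1 and Snhg12, against 4 in Malat1. It began 1 base before the start base in Gas5 and Snhg8 and 3 bases before it in Snhg12. In Snhg1 it began 4 bases after the start base, so the annotated transcript does not start within it. Runs of at least 6 bases were found in 25.3% of all 32851 promoter entries, of at least 7 in 16.9% and of at least 9 in 8.09%. All 4 host entries shown held TATA in the window, as did the first entry of Meg3, while 5.34% of all entries did. The first Gas5 entry, upstream of the one shown, held neither TATA nor a run over 3 bases. Among the other noncoding hosts of a related list, 14 of 16 had an entry, 5 of these had a run of at least 7 bases and 1 had TATA. The protein-coding hosts gave 7 and 2 of 19. These matches describe letters only, and the letters were searched after the sequences had been seen.

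Of the 10 genes, 3 had no count in any kept cell. Meg3 (chr12:109506879-109538163 on GRCm39, plus strand) and H19 (chr7:142129267-142131883, minus strand) were at 0 in 29 control and 37 RO-3306 cells. Zero counts allow up to 0.0454 CPM for control and 0.0323 CPM for RO-3306 (3 counts of each group's total), and a share of cells with a count of up to 10.3% and 8.11%. By its default the authors' counting tool leaves a read unassigned when it overlaps more than 1 gene span, and 77.0% of the Meg3 span and 96.8% of the H19 span were free of other genes. Kcnq1ot1 (chr7:142766848-142850284, minus strand) lies wholly within Kcnq1 on the other strand, so 0% of its span could be counted. Its 0 is therefore no measurement. Of 13 genes listed from the same imprinted regions, 5 were also at 0, namely Dlk1, a surface protein of progenitor cells, Rtl1, Ins2, Cdkn1c, a CDK inhibitor, and Phlda2. The others had counts, and 5 of them averaged 5 CPM or more. Igf2, for example, was at 20.6 CPM for control and 18.7 CPM for RO-3306, in 5 and 19 cells.

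The other 7 genes averaged 5 CPM or more across both treatments, the level used here for a measured gene. Malat1 lay at chr19:5845718-5852700 (minus strand), Neat1 at chr19:5874736-5895508 (minus), Snhg1 at chr19:8700851-8703690 (plus) and Gas5 at chr1:160862171-160866109 (plus). Snhg6 lay at chr1:10012250-10014343 (minus), Snhg8 at chr3:123301201-123301985 (minus) and Snhg12 at chr4:132035989-132038335 (plus), all on GRCm39. Counting covered whole spans with introns, so a value includes unspliced RNA. The countable part of the span was lowest for Snhg1 (78.2%) and Gas5 (78.8%), whose introns hold annotated snoRNAs, and 262 bases at the start of Gas5 are shared with Zbtb37 on the other strand. It was 83.4% for Snhg8, 84.2% for Snhg12, 96.5% for Snhg6, 99.2% for Malat1 and 100% for Neat1.

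For each treatment the counts of its kept cells were added up, and the log2 ratio compares RO-3306 with control after adding 1 CPM to each, so a positive value is higher in RO-3306. A gene was called where the ratio was at least 2-fold and had the same sign for all 4 letters, A to D, that the library titles carry and that the labels do not explain. By this rule Gas5 and Snhg12 were higher and no gene of the 7 was lower. Over all 9374 measured genes, 7.23% were called higher and 6.43% lower. The median log2 ratio of the 7 genes was -0.13, against -0.22 over all genes, and 3 lay above 0 and 4 below. TMM and DESeq2 size factors, which raise every ratio by 0.21 and 0.24, moved the median to 0.072 and 0.096, and with either Snhg1 joined the genes called higher. They also changed the split over all genes, from 52.9% of the called genes being higher to 66.4% and 67.8%. Intervals at the 95% level in the text are exact Poisson or Clopper-Pearson intervals and cover counting error only, and the reads carry no molecular identifiers. With 1 sample per treatment, no difference below has a replicate check.

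**Figure D1:**
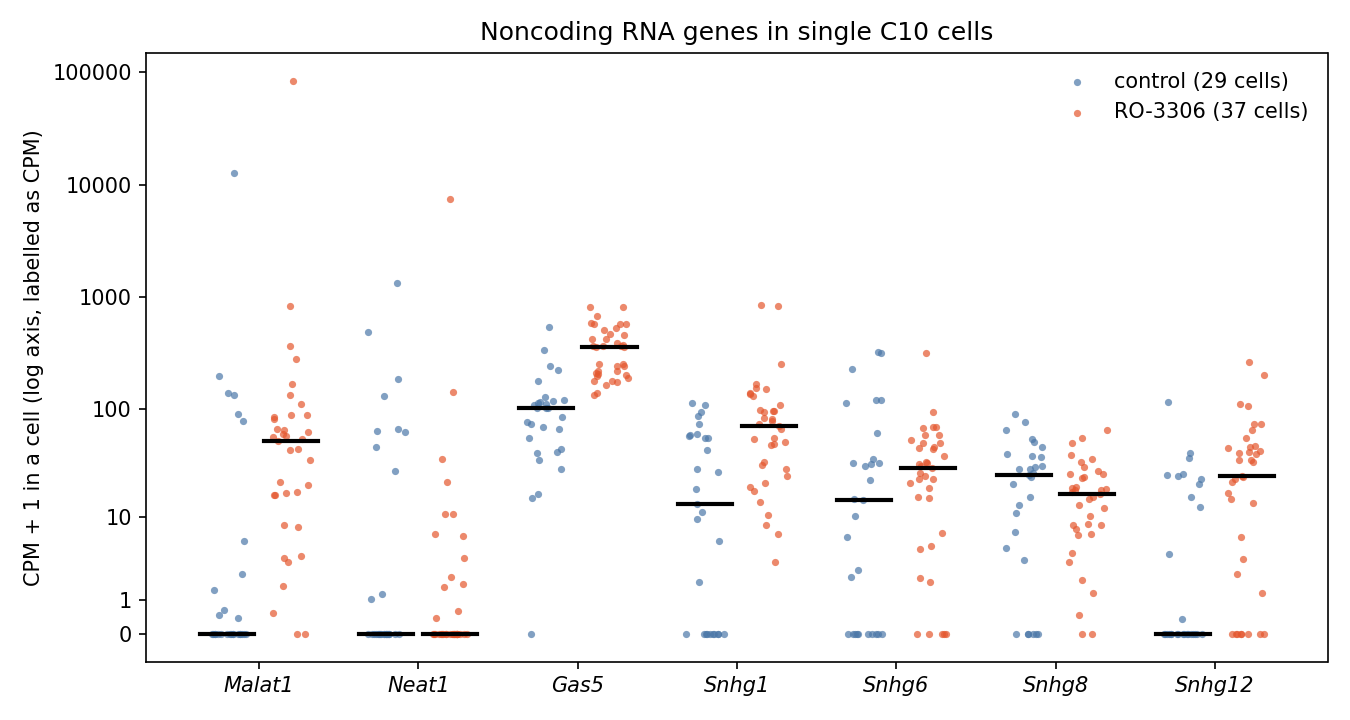
CPM in each kept cell (vertical log axis of CPM + 1, labelled as CPM) for the 7 measured genes, with control cells in blue, RO-3306 cells in orange and the median cell as a bar. All 37 RO-3306 cells had Gas5 at 132 CPM or more, and the highest points of Malat1 and Neat1 are control B4 and RO-3306 A11.

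Gas5 was the member seen in nearly every cell. In control cells it ran from 0 to 542 CPM with a median of 102, and 28 of 29 cells had a count. In RO-3306 cells it ran from 132 to 820 CPM with a median of 362, and all 37 had a count. The groups overlapped: 5 control cells lay above the lowest RO-3306 cell and 7 RO-3306 cells above the highest control cell. Every RO-3306 cell lay above the control median, and 1 control cell lay above the RO-3306 median. Summed, control gave 120 CPM (117 to 122) and RO-3306 gave 341 CPM (337 to 344), a log2 ratio of 1.501. Letters A, B, C and D gave log2 ratios of 1.24, 1.09, 2.76 and 2.07, and the median cell was higher in RO-3306 for all 4. No single cell carried the sum: the largest part was 9.89% of the RO-3306 counts, from C4, and 19.7% of the control counts, from B4.

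Snhg12 hosts snoRNAs of the pseudouridine-guiding class and Snord99. It had a count in 12 of 29 control cells (41.4%, 23.5% to 61.1%) and in 29 of 37 RO-3306 cells (78.4%, 61.8% to 90.2%). Control cells ran from 0 to 116 CPM with a median of 0, and RO-3306 cells from 0 to 263 CPM with a median of 24.7. The groups overlapped, with 5 control cells above the RO-3306 median. Sums of 15.4 CPM (14.5 to 16.4) and 38.5 CPM (37.2 to 39.7) gave a log2 ratio of 1.27. That ratio was uneven over the letters, at 0.16, 2.43, 0.88 and 0.96 for A to D. Without letter B it was 0.75 and under the 2-fold limit. Within letter A the median RO-3306 cell, at 1.21 CPM, was below the median control cell, at 6.46 CPM.

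Snhg1, which hosts a row of box C/D snoRNAs, lay at the limit of the rule and was not called. It had a count in 19 of 29 control cells (65.5%, 45.7% to 82.1%) and in all 37 RO-3306 cells (100%, 90.5% to 100%). Control cells ran from 0 to 114 CPM with a median of 13.3, and RO-3306 cells from 3.39 to 844 CPM with a median of 70.1. Most RO-3306 cells, 33 of 37, lay above the control median, and 9 lay above the highest control cell. The sums were 43.95 CPM (42.4 to 45.6) and 86.8 CPM (84.9 to 88.7), a log2 ratio of 0.97. Letters A to D gave 0.47, 0.94, 2.02 and 1.70. RO-3306 cells A11 and C11 stood apart from the others at 844 and 839 CPM. Without A11 and control B4 the log2 ratio was 1.05, but letter A then gave -0.07, so the sign was no longer shared.

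Snhg6 and Snhg8 were below the 2-fold limit, and their letters disagreed in sign. Snhg6 ran from 0 to 327 CPM in control (median 14.6, a count in 19 of 29 cells) and from 0 to 315 CPM in RO-3306 (median 28.9, 32 of 37 cells). Its sum was lower in RO-3306, at 33.2 CPM against 36.5 CPM (log2 ratio -0.13, but 0.072 with TMM factors), while its median cell was higher. In control, 6 cells were at 100 CPM or more, led by C3 and C1 at 327 and 320 CPM. In RO-3306 only B3, with a mitochondrial share of 56.0%, exceeded 100 CPM. Snhg8 ran from 0 to 90.5 CPM in control (median 25.3, 23 of 29 cells) and from 0 to 64.6 CPM in RO-3306 (median 16.7, 35 of 37 cells). Its sums were 26.01 and 19.7 CPM, a log2 ratio of -0.38. Letters A and B gave -1.27 and -0.85, and letters C and D gave 0.21 and 1.85. Snhg8 was thus the host whose level was lower in the median RO-3306 cell, although more of those cells had a count.

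**Figure D2:**
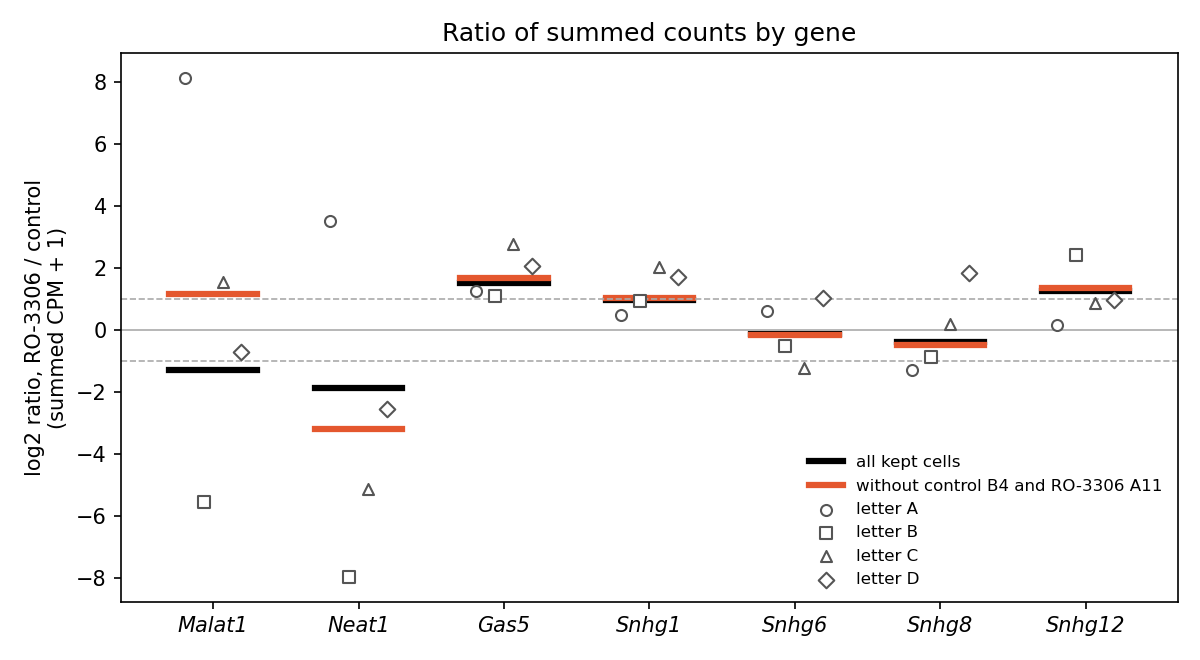
Log2 ratio of RO-3306 over control from summed CPM + 1 for each measured gene: black bars are all kept cells, orange bars leave out control B4 and RO-3306 A11, open symbols are the 4 title letters and dashed lines mark 2-fold. Gas5 symbols all lie above 1, from 1.09 to 2.76, while Malat1 symbols run from -5.53 to 8.12.

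Malat1 and Neat1 gave sums that rested on 1 cell in each group. The Malat1 sums were 1274 CPM (1265 to 1282) for control and 524 CPM (519 to 528) for RO-3306, a log2 ratio of -1.28, with letters at 8.12, -5.53, 1.56 and -0.72. Control B4 alone gave 98.3% of the control counts, at 12800 CPM, and RO-3306 A11 gave 89.5% of the RO-3306 counts, at 84415 CPM. In A11, 8.44% of all counts fell on Malat1. The highest of the other cells had 198 CPM among control and 840 CPM among RO-3306 cells. Without B4 and A11 the sums were 24.5 and 55.4 CPM, and the log2 ratio turned from -1.28 to 1.15. Letter D stayed at -0.72, so Malat1 was not called either way.

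Cell by cell, Malat1 was found in 12 of 29 control cells (41.4%, 23.5% to 61.1%) and in 35 of 37 RO-3306 cells (94.6%, 81.8% to 99.3%). The control median was 0 CPM and the RO-3306 median 51.3 CPM, and the latter was higher for all 4 letters. By depth, control cells with a count had a median total of 2186245 counts and those without 1704042, and control A3, with 5580370 counts, had none. After thinning each cell to 639000 counts, which left out 4 control and 3 RO-3306 cells, the shares were 36.0% of 25 and 88.2% of 34. With at least 5 counts required they were 27.6% and 91.9%. Above the RO-3306 median lay 6 control cells.

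Neat1 showed another pattern. It had a count in 11 of 29 control cells (37.9%, 20.7% to 57.7%) and 14 of 37 RO-3306 cells (37.8%, 22.5% to 55.2%), and the difference of the shares was -0.0932 percentage points. Among cells with a count the median was 63.8 CPM for control and 6.60 CPM for RO-3306. The sums were 166 CPM (163 to 170) and 45.2 CPM (43.8 to 46.5), a log2 ratio of -1.86, with letters at 3.50, -7.95, -5.12 and -2.54. B4, at 1322 CPM, gave 77.7% of the control counts, and A11, at 7483 CPM, gave 92.0% of the RO-3306 counts. Without both cells the sums were 41.2 and 3.65 CPM and all 4 letters were below 0, at -1.24, -5.05, -5.12 and -2.54. Neat1 then passed the rule as lower (log2 ratio -3.18), as did 6.18% of 9261 measured genes, while 7.87% passed as higher, Gas5 and Snhg12 among them. That pass rested on 1 more cell: control C1, at 485 CPM, was the only one of 6 control cells of letter C with a count. With C1 also left out, letter C gave 1.39 and Neat1 did not pass (log2 ratio -2.73). In letter A, Neat1 was found in 8 of 10 RO-3306 cells (median 3.003 CPM) but 3 of 10 control cells (median 0), although the sum without A11 was lower in RO-3306.

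**Figure D3:**
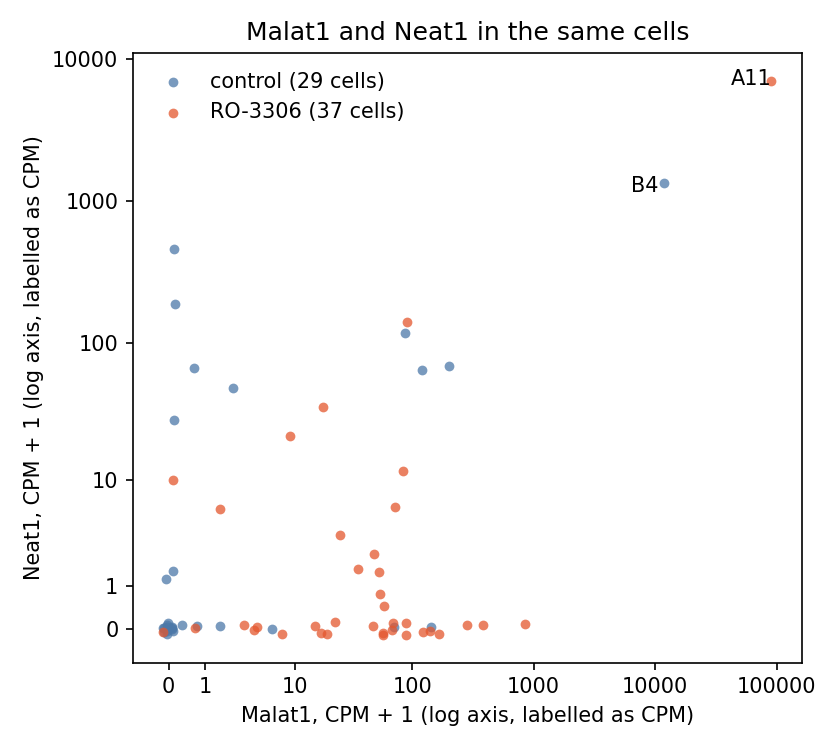
Malat1 (horizontal) against Neat1 (vertical) in each kept cell, both as CPM + 1 on log axes labelled as CPM, with a small random shift so that cells at 0 can be seen. Control B4 and RO-3306 A11 lie apart at the upper right, and 22 RO-3306 cells have Malat1 without Neat1.

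In the same cells, Malat1 and Neat1 were both found in 6 control cells, Malat1 alone in 6, Neat1 alone in 5 and neither in 12. In RO-3306 cells the numbers were 13, 22, 1 and 1. B4 had the most counts and the most genes (10828) of the control cells and a mitochondrial share of 1.99%. A11 had 515218 counts, 3178 genes and a mitochondrial share of 18.1%, the second highest of its group. Both cells thus differed from their groups in depth or mitochondrial share as well as in Malat1 and Neat1. The part of depth and mitochondrial share in the 2 RNAs was not tested. Each library held some of a cell's RNA, and no value here shows how nuclear RNA was parted between the RNA and protein measurements. The part of that split in the Malat1 and Neat1 counts, in these or other cells, was not tested either. Gas5 in these cells, at 242 CPM in B4 and 574 CPM in A11, lay within the range of the other cells of each group.

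The share of cells with a count was higher in RO-3306 by at least 25 percentage points for 3 of the 7 genes, Malat1 (53.2 points), Snhg12 (37) and Snhg1 (34.5), and lower by as much for none. By this limit, chosen after the values had been seen, 20.3% of all measured genes were higher and 0.501% were lower. The median over all measured genes was 10.7 points higher in RO-3306, whose cells also had more counts and more genes. Snhg6 and Snhg8 were 20.97 and 15.3 points higher, and Gas5, found in 96.6% of control cells, 3.45 points.

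**Figure D4:**
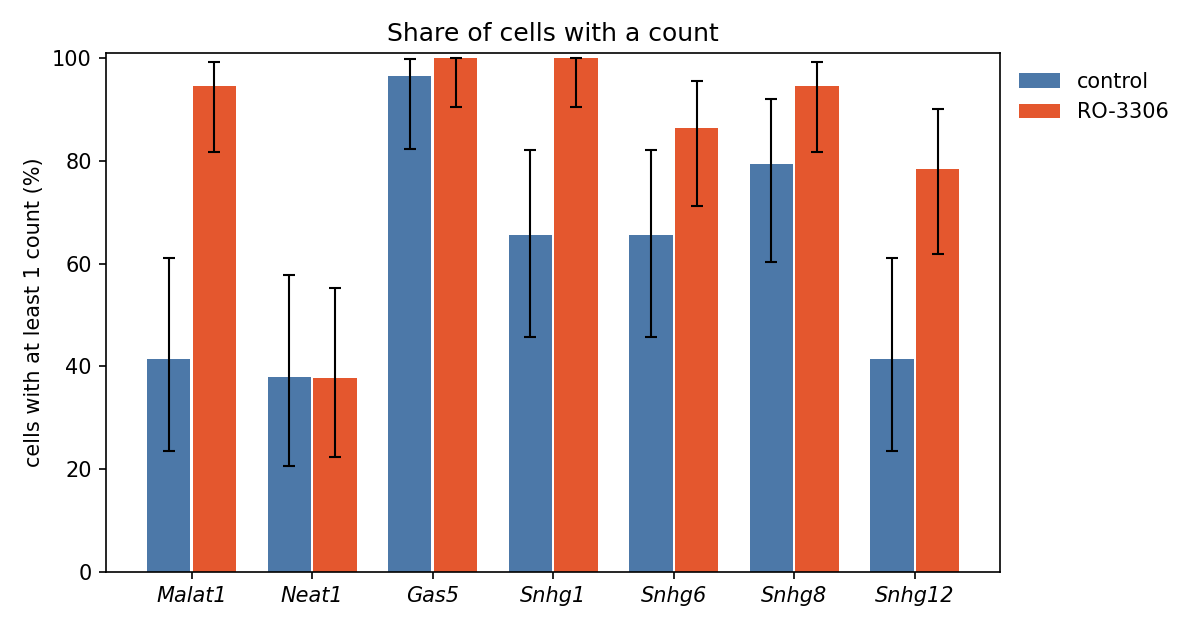
Share of kept cells with at least 1 count (percent, bars from 0) for each measured gene in control (blue) and RO-3306 (orange), with exact 95% binomial intervals for counting error. The RO-3306 bar is higher by 34.5 to 53.2 percentage points for Malat1, Snhg1 and Snhg12, and the bars of Neat1 are at 37.9% and 37.8%.

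Levels of different genes were compared per kilobase of the longest GENCODE transcript, as CPM per kb in the median cell. In control the order was Gas5 (39.9), Snhg8 (32.5), Snhg6 (17.8) and Snhg1 (4.89), with Snhg12, Malat1 and Neat1 at 0. The quartile ranges of all neighbours in this order overlapped. In RO-3306 it was Gas5 (141), Snhg6 (35.4), Snhg1 (25.7), Snhg8 (21.5), Snhg12 (16.04), Malat1 (7.35) and Neat1 (0). There the quartiles of Gas5, 80.0 to 184 CPM per kb, lay above those of Snhg6, and the quartiles of Malat1 lay above those of Neat1. The ranges of the other neighbours overlapped. Several genes have many annotated transcripts of unequal length, so the order depends on the length taken. Per kb of the median transcript, Malat1 in the median RO-3306 cell was at 84.7. That was below Gas5 (575) and Snhg1 (116) but above Snhg6 (51.7), Snhg8 (31.6) and Snhg12 (26.9). The counts also cover introns, which transcript lengths leave out.

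Over cells of 1 treatment, the hosts gave mostly low correlations. Spearman correlations of thinned counts between the 5 hosts ran from -0.19 to 0.66 in control (25 cells, 10 pairs, median -0.01) and from -0.15 to 0.48 in RO-3306 (34 cells, median 0.17). The highest was Snhg1 with Snhg12 in control, at 0.66, and the same pair gave 0.00 in RO-3306. Gas5 with Snhg12 gave 0.48 in RO-3306 and 0.01 in control. Malat1 with Neat1 gave 0.27 in control and -0.17 in RO-3306. These values are descriptions with no test, and cells of 1 treatment share a source and low counts.

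The genes most like each member were taken as the 3 with the highest mean of the within-treatment correlations, among 3447 genes of at least 50 CPM. For Gas5 they were Rhbdd2, Snrpe, a core protein of spliceosomal particles, and Rps28, a ribosomal protein, at means of 0.52, 0.48 and 0.47. For Snhg8 they were the ribosomal protein genes Rpl27a and Rps3 and the single-stranded DNA-binding protein gene Nabp2, at 0.50, 0.44 and 0.42. For Snhg12 they were Dpcd, Ahnak and Dusp14 (0.52, 0.49 and 0.48), for Snhg1 Ppp1cc, Mfsd1 and Cnih1 (0.44, 0.41 and 0.39), and for Snhg6 Atp5k, Rpa1 and Mrpl30 (0.49, 0.48 and 0.48). Malat1 had Uqcrc2, Ngdn and Maged2 (0.48, 0.44 and 0.43), and Neat1 had Gtf2f1, Zdhhc20 and Myof (0.50, 0.49 and 0.49). A value of 0.30 to 0.37, depending on the member, marked the top 1% of candidates. The named genes are the highest of 3447, so they lie above that mark by the way they were picked. No test was made, and these values do not show that a gene is tied to a member.

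Each member was also set against 5 measures of the cell, again by Spearman correlation within a treatment (35 relations in each). For the total of counts, Neat1, Snhg1 and Snhg12 gave 0.44, 0.36 and 0.36 in control, against -0.13, -0.07 and 0.17 in RO-3306. For the mitochondrial share, Neat1 and Snhg1 gave -0.45 and -0.47 in control and -0.15 and 0.03 in RO-3306. For the number of genes with a count, Snhg6 gave 0.14 in control and 0.40 in RO-3306, Snhg1 gave 0.23 and -0.35, and Malat1 gave 0.34 and 0.18. Gas5 gave 0.05 and 0.01 with the total and 0.06 and 0.23 with the mitochondrial share. With the summed level of 10 targets of the tumour suppressor p53, Gas5 gave 0.12 in control and 0.05 in RO-3306, and Snhg1 gave -0.12 and 0.28. With 10 mitotic genes Gas5 gave 0.31 and 0.00. Over all measured genes, 7.23% were called higher and 6.43% lower between treatments. Of the 10 p53 targets, 6 were called higher and none lower (median log2 ratio 1.23). The 6 were Cdkn1a, a CDK inhibitor gene, at 78.9 and 287 CPM, Mdm2, Ccng1, Bax, Trp53inp1 and Eda2r. Without B4 and A11 the number was 5, as Eda2r was no longer called. The 10 mitotic genes had a median log2 ratio of -0.15, which became 0.16 without those 2 cells. Of them Mki67 was called lower, at 105.3 and 12.5 CPM, and none was called higher. Of the 10 genes, 4 lay above 0 and 6 below. The highest were Ccnb2, a mitotic cyclin gene, at 0.78, and Aurka, a mitotic kinase gene, at 0.69. Aurka was called higher without the 2 cells. Kif11, Tpx2 and Top2a were at -1.36, -1.29 and -1.09, and Top2a was at -0.41 without the 2 cells. None of these 3 was called, because their letters disagreed in sign.

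Other noncoding snoRNA hosts lay mostly below 0. Of 16 on the list, 13 were measured, with a median log2 ratio of -0.75, and 9 were below 0, where over all measured genes 41.05% were above 0. Zfas1 was called higher, at 46.7 CPM for control and 110 CPM for RO-3306 (log2 ratio 1.22), and none was called lower. Without B4 and A11, Snhg7 was called higher too (1.35), but B4 had given 49.2% of its control counts. The lowest was Snhg17 (37.7 and 9.63 CPM, -1.86), whose letters disagreed in sign. Of 30 protein-coding hosts, mostly ribosomal protein and translation factor genes, 29 were measured with a median of -0.29. None was called higher and 1, Ncl, the nucleolar protein nucleolin, was called lower (977 and 476 CPM, -1.04). The highest was Rpl21 at 0.32. Ncl was not called without B4 and A11 (-0.88).

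Transcripts of proteins that act with these RNAs were also set beside them. Among 8 core proteins of snoRNA particles the median was -0.57. Fbl, the methyltransferase fibrillarin, was called lower (145 and 58.3 CPM, -1.30), Gar1 had the lowest ratio (-1.35) with letters that disagreed, and Nhp2 the highest (0.43). Of 10 nonsense-mediated decay factors 9 were measured, with a median of -0.11 and none called. That median had no settled sign, at 0.085 with TMM factors, 0.56 with the length correction, 0.42 without letter B and -0.37 without letter C. They ran from Smg9 (-1.43) to Upf3a (1.06), and Upf1, the helicase of the pathway, was at 9.23 and 7.61 CPM.

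Over all measured genes the median log2 ratio was -0.22, 41.05% were above 0 and 6.43% were called lower. The 6 measured paraspeckle protein genes had a median of -1.001, and all 6 were below 0. Pspc1 was nearest to 0, at -0.068, and became 0.38 without B4 and A11. Sfpq, one of the core paraspeckle proteins, was called lower (142 and 51.4 CPM, -1.45), as was Tardbp (121 and 50.3 CPM, -1.25). Without B4 and A11 the ratio of Sfpq was -1.48, but it was not called, because its letters no longer shared a sign. The 6 nuclear speckle protein genes had a median of -1.53, from Srrm2 (-1.75) to Srsf2 (-1.28), and all 6 were below 0. Srsf3, a splicing factor, was called lower (757 and 280 CPM, -1.43), and without B4 and A11 so were Srrm2 and Son. Ratios over all genes also fell with transcript length, from a median of 0.25 in the shortest 10% to -0.86 in the longest, and the part of length in these lists was not tested beyond the correction given in the closing section.

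**Figure D5:**
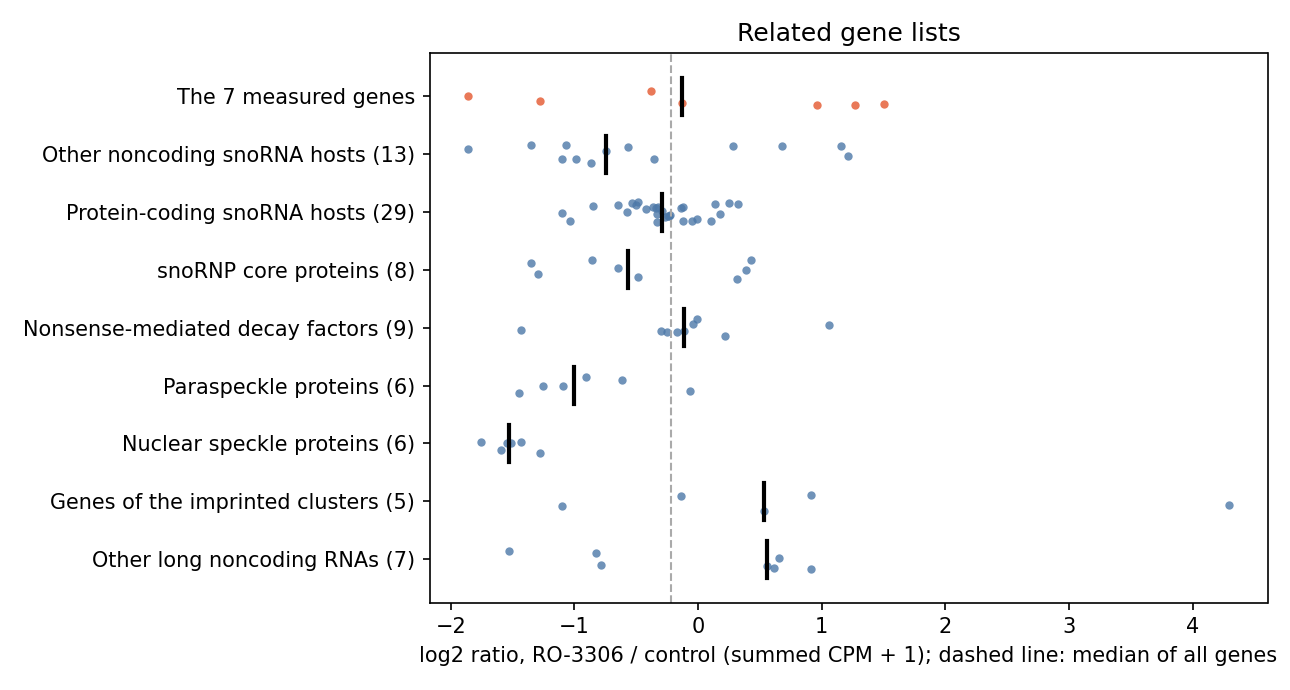
Log2 ratio of RO-3306 over control (summed CPM + 1) for the 7 measured genes (orange) and the measured genes of 8 related lists (blue, number in brackets), with each list's median as a bar and the median of all genes dashed at -0.22. The paraspeckle and speckle proteins all lie below 0. The point at the far right is Slc22a18, which had no control count, so its place depends on the 1 CPM added.

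Of 13 genes in the imprinted regions of Meg3, H19 and Kcnq1ot1, 5 were measured, with a median of 0.54. Slc22a18, a transporter gene near Kcnq1ot1, had no count in the 29 control cells and 18.7 CPM after RO-3306, in 13 of 37 cells. Set against 3 counts over the control group, its RO-3306 sum was 411-fold higher, and the list's median was 0.54 with that value too. This covers counting error of reads only. The 1733.5 counts of the gene came from 13 cells, so 411-fold is no lower bound: a single control cell with such counts would reduce it greatly. Cd81 was at 175 and 330 CPM (0.91), with letter D below 0, and Nap1l4 was lowest (104 and 47.9 CPM, -1.10). Of 18 other long noncoding RNAs, 7 were measured, with a median of 0.56 and none called. The median was -0.078 without letter A and -0.043 without letter C. Pvt1, next to Myc, was highest (32.7 and 62.5 CPM, 0.92), and Airn lowest (28.1 and 9.07 CPM, -1.53). Trp53cor1, a p53-induced RNA also called lincRNA-p21, was at 3.95 and 6.29 CPM. Without B4 and A11, Pvt1 and Mir22hg passed the rule as higher, as did 7.87% of all measured genes. B4 was the only control cell with a count of Mir22hg, so leaving it out left that gene no control count. For Pvt1, B4 gave 31.3% of the control counts, the largest part. Norad, like Rbm14 of the paraspeckle list, lies under other gene spans throughout and could not be counted.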

How the data were processed

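The 96 libraries were single cells prepared with SMART-seq v4. The authors deposited 1 file of expected counts per cell. Per the file headers featureCounts 2.0.3 counted whole gene spans of the RefSeq annotation on GRCm39, with multi-mapped reads split into fractions and no strand or overlap option. FastQC and STAR are named in the submitters' processing notes, without versions. Mitochondrial genes stayed in the totals.

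The members and gene lists were chosen with earlier results of these data known. The labels name no culture, so p-values were not computed: counts were summed per treatment and given as CPM (pseudocount 1 CPM, minimum mean 5 CPM for a measured gene). Intervals used counts rounded to whole numbers. The naming rule took all members and the 3 most alike genes of each; from each list the highest, lowest and called genes could be named. Upf1, Cd81, Igf2, Pspc1, Ccnb2, Aurka, Kif11, Tpx2, Top2a and Trp53cor1 were named after their values were seen. Each library was 1 sorted cell, and no doublet caller was run. No 2 kept libraries were identical. Thinning took 639000 counts per cell. TMM factors (edgeR 4.0.16) and DESeq2 1.42.0 size factors on the group sums served as alternatives only, in R 4.3.3; the rest used Python 3.11.15, pandas 2.3.3 and scipy 1.17.1. Transcript lengths came from GENCODE M21 by symbol. The sums and calls were tested on simulated counts for RO-3306 against control (9374 genes). Of 50 genes given a log2 change of 1.5, 76% were called, and of 9174 unchanged genes 1.16%. The simulated cells were drawn independently, with the same spread between cells for every gene and no difference between letters or cultures. These shares therefore check the computation and are not error rates for the calls in the real cells.

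The alternatives were other scalings, pseudocounts and low-value limits, per-cell means, thinning, stricter cell limits, rounding, a length correction and leaving out each letter. Leaving out control B4 and RO-3306 A11, or these and control C1 for Neat1, or the cell with most counts of each member, was chosen after seeing the data.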

Additional observations from a re-analysis of the deposited data

Results flagged for a closer look

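The 19 control and 11 RO-3306 libraries under the limits on counts or genes also held members. These libraries had 341166 and 1162603 counts in all. The left-out library with most genes was D3 in control, with 1692 genes and a mitochondrial share of 0.249%. In RO-3306 it was B8, with 4047 genes and 4.52%. Control B3, with the most counts of the left-out control libraries, had 503 genes and a share of 0.00209%. The 2 sets of libraries thus do not compare like with like, and a treatment difference between them was not tested. Summed over them, Malat1 reached 3501 CPM in RO-3306 and 938 CPM in control, Neat1 1160 and 5.86 CPM, and Gas5 234 and 0 CPM (a count of 0 allows up to 8.79 CPM, which is 3 counts of the total). For these 3 genes the RO-3306 sum lay above the control sum by more than counting error, which leaves out the spread between cells.

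Single libraries gave most of these counts. RO-3306 library D3, with 44905 counts in all, gave 3201 of 4070 Malat1 counts and 1343 of 1349 Neat1 counts, and control library D3 gave 319 of the 320 Malat1 counts. For Gas5, RO-3306 library D5, whose mitochondrial share was 87.3%, gave 115.5 of 271.5 counts, and 8 of 11 RO-3306 libraries had a count. Of the libraries near the limits, control D10 was the shallowest kept, with 59979 counts, of which 8 fell on Malat1 and 1 on Gas5. RO-3306 D5 had the most counts of those left out, 773537, with 943 genes.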

How the results depend on the processing

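No paired analysis was possible because no result comes from a test, and nothing in the labels ties cells with the same letter and number to each other. The 2 calls, Gas5 and Snhg12, were made again in every alternative that recomputed the calls except 1: without letter B the called genes were Gas5 and Snhg1. The number called was 4 after thinning and 4 without letter A, with Snhg1 higher and Neat1 lower added, and 2 or 3 otherwise. Thinning, like leaving out letter A, left out RO-3306 A11, which had 515218 counts and 92.0% of the RO-3306 Neat1 counts. Both kept control B4, with 77.7% of the control Neat1 counts, and control C1, so for Neat1 the high cell was removed from RO-3306 only. The median log2 ratio of the members, -0.13, changed sign between alternatives. It became 0.072 with TMM factors and 0.096 with DESeq2 size factors, which shift all genes by 0.21 and 0.24. It was 1.67 for means over cells, -0.37 after thinning, 0.75 without letter B, 0.061 without letter C, -0.38 with the length correction and 1.05 without control B4 and RO-3306 A11. Gas5 ran from 1.29 to 1.88, Snhg1 from 0.69 to 1.82 and Snhg12 from 0.75 to 1.69, all above 0. Snhg8 ran from -0.64 to -0.09 and Snhg6 from -0.47 to 0.11. Malat1 ran from -5.12 (without letter A) to 4.70 (without letter B) and Neat1 from -6.09 (without letter A) to 1.33 (means over cells). The speckle list stayed below 0, at -1.61 to -0.94, as did the paraspeckle list, at -1.19 to -0.42 (both highest with the length correction), and the other noncoding hosts, at -0.85 to -0.51. With no limit on low values, 2.20% and 1.63% of all genes were called higher and lower. Having 1 sample per treatment limits all values, and kept cells differed widely in depth, from 59979 to 6457215 counts.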
